A study of Mus musculus with 6 samples.

Results

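Of the 45037 probe sets compared between mutant and control liver, 16 read the 9 genes for fatty acid binding and uptake proteins examined here, namely Fabp1, Fabp2, Fabp4, Fabp5, Fabp7, Cd36, Slc27a2, Slc27a4 and Slc27a5. The genes were taken by symbol, and every probe set annotated to exactly 1 of these symbols was kept, with no filter on low values, so that all 16 were tested. The mutants were 3 B6.Alb/cre,Pdss2loxP/loxP males, aged 176, 178 and 224 days for mutants 1 to 3, in which cre recombinase under the albumin promoter deletes part of Pdss2 in hepatocytes. The controls were 3 B6.Pdss2loxP/loxP males without cre, aged 209, 213 and 140 days for controls 1 to 3. Both groups therefore carried the loxP alleles, no group carried cre alone, the genotypes lived in separate cages, and all mice went without food for the 3 h before they were killed. Liver RNA of each mouse was hybridized to 1 Affymetrix mouse array, and the study asked which metabolic pathways change when coenzyme Q is not made. Pdss2 encodes a subunit of the enzyme that makes the side chain of coenzyme Q, the electron carrier of the respiratory chain.

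Long-chain fatty acids are poorly soluble, and cells use a set of proteins to take them up and move them. CD36 is a receptor of the plasma membrane for fatty acids and lipoproteins, and the SLC27 proteins (FATP) both aid uptake and join fatty acids to coenzyme A. Inside the cell the FABP proteins carry fatty acids through the cytosol to membranes, mitochondria, peroxisomes and the nucleus. FABP1 is the liver form and one of the most abundant proteins of the hepatocyte cytosol, FABP2 is the intestinal form, FABP4 is that of adipocytes, macrophages and some endothelium, FABP5 was first known from epidermis, and FABP7 from brain. Several of these genes, Fabp1 and Cd36 among them, are known targets of the PPAR nuclear receptors.

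The start regions of Fabp1, Fabp2 and Cd36 are shown because the values that lay below the controls, described further on, were mainly those of these genes. The RefSeq promoter table of GRCm38.p6 matched 6 of the 9 genes, all but Fabp4, Fabp5 and Slc27a5. The 250 bases before the start that it lists for each gene are given 5′ to 3′ on the gene's strand. For Cd36 the listed start lies inside the gene's annotated span on chromosome 5 (17781690 to 17888959), and not at the end where that span begins on the minus strand. Capitals mark the PPAR half-site AGGTCA, searched on both strands and read here as TGACCT.
Fabp1, chr6:71199629-71199878, plus strand: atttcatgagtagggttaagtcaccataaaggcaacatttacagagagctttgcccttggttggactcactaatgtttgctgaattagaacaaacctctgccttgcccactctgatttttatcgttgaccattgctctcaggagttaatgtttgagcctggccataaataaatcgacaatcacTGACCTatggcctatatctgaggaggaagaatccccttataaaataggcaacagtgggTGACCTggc
Fabp2, chr3:122894822-122895071, plus strand: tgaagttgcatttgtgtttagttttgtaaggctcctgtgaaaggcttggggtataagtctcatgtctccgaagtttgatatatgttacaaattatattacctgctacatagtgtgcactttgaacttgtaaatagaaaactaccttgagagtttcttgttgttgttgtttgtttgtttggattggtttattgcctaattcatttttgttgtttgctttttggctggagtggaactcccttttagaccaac
Cd36, chr5:17835897-17836146, minus strand: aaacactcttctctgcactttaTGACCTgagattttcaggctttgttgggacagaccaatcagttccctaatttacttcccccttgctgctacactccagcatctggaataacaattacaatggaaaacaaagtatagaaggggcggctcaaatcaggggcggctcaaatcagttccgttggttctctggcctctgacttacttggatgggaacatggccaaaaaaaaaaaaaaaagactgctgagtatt
The Fabp1 window held 2 half-sites, which began 67 and 9 bases before the start, and a TATAAA on the gene's strand that began 30 bases before it. The Cd36 window held 1 half-site, which began 228 bases before the listed start inside the gene, and the windows of Slc27a2 and Fabp7 held 1 each. No half-site was found in the windows of Fabp2 and Slc27a4. Of 32851 promoters listed, 14% held at least 1 half-site in windows of the same length and 7.59% held TATAAA on the gene's strand. A direct repeat of 2 half-sites with 1 base between them, searched on both strands, was in 0.0335% of all promoters and in none of the 6 windows. These matches describe letters and show no binding.

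All values are log2 intensities as deposited, and all differences are mutant minus control on that scale, by the sample labels. No member passed the comparison of all probe sets, at an adjusted p under 0.05 from limma with Benjamini-Hochberg adjustment over the 45037 probe sets, where 1.99% of all probe sets passed (1.25% higher and 0.746% lower). None of the 9 genes thus had a called probe set, beside 1.62% of all genes with one called lower and 2.34% with one called higher. At an unadjusted p under 0.05 from limma, 3 member probe sets had higher values in mutants (all of Fabp4) and 4 had lower ones (2 of Cd36 and 1 each of Fabp1 and Fabp2), and over all probe sets these shares were 15.7% and 9.54%. Fabp2 came closest, at an adjusted p of 0.053 from limma and 13.6% of the control level. The median difference over the 16 probe sets was -0.41, with 11 negative and 5 positive, while the median over all probe sets was 0.17 and 34.8% of them were negative. In 5 member probe sets each mutant lay below each control and in 4 each mutant lay above, and over all probe sets 10.7% and 21.2% did so (31.9% in either direction, beside 9 of the 16). For 1 probe set in 3 mutants and 3 controls, the exact permutation test reaches no p below 0.1, and all p-values measure the spread between mice. The study describes many metabolic pathways as upregulated, from gene set enrichment over ranked genes, and its text names none of the 9 genes. Most members here had negative differences on single probe sets, with none called, so these are unlike measures. An exchange of array labels was not tested. The loss of Pdss2 RNA that the study measured by PCR in mutant liver is a check of mice, and not of how the arrays were labelled.

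**Figure D1:**
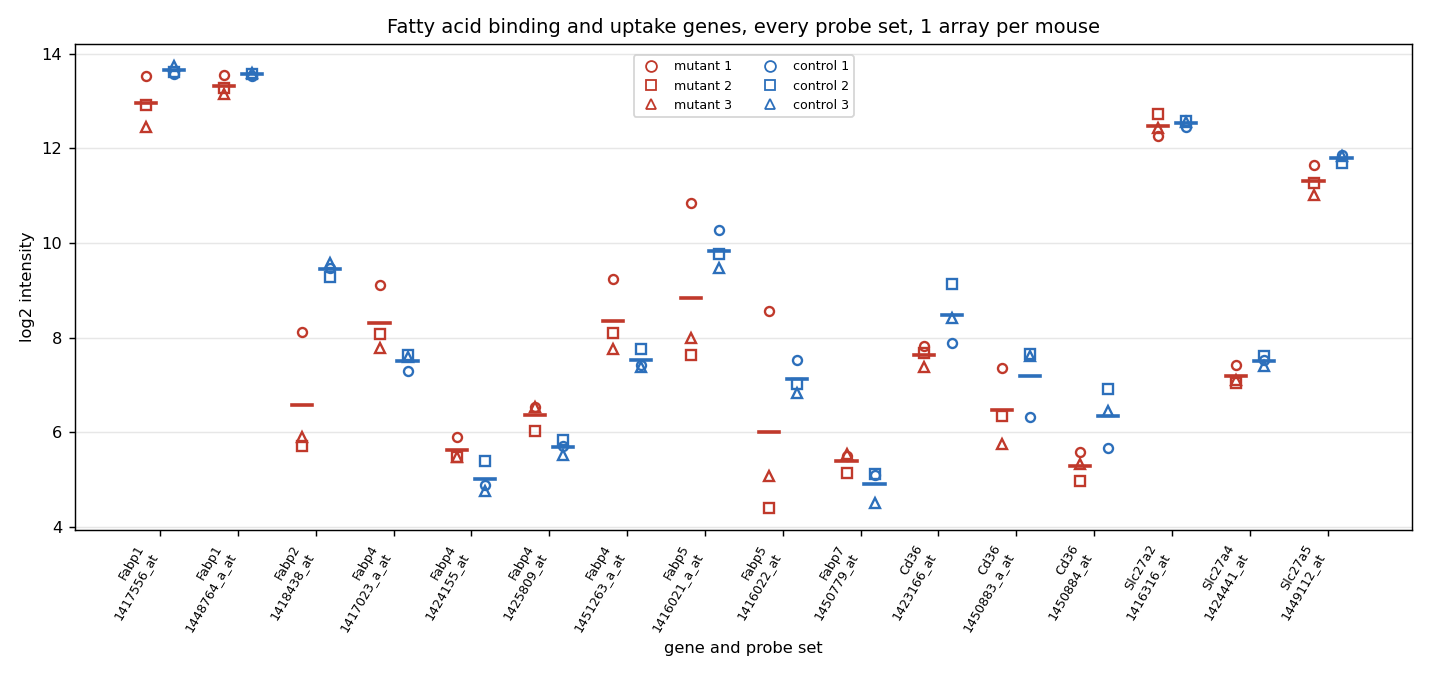
Log2 intensity (vertical axis) of each of the 16 probe sets (horizontal axis) in mutants 1 to 3 (red, left of each pair) and controls 1 to 3 (blue, right), with a bar at each group's mean. For Fabp2 the mutants sit at 8.12, 5.70 and 5.89, below all controls (9.29 to 9.57), and for Fabp5 mutant 1 sits above all controls while mutants 2 and 3 sit below them.

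Some facts of the arrays bear on these values. Array medians were 6.12 to 6.24 in mutants and 5.92 to 6.12 in controls, and the difference changed with brightness, with a median of 0.21 to 0.24 in the 5 dimmest of 10 equal bins of probe sets and -0.17 in the brightest bin. After quantile normalization the bins lay between -0.11 and 0.08. The BioB, BioC and BioD probe sets, which read bacterial transcripts added to every sample, were higher on mutant arrays by 1.36 to 1.82. Pdss2 itself read 6.94, 6.88 and 7.05 in mutants against 7.46, 7.47 and 7.56 in controls on its brightest probe set (difference -0.54, adjusted p = 0.118 from limma), and differed by 0.40 and 0.35 on the others, where the groups overlapped. The sources used here do not place these probe sets on the gene, so it is unknown whether they read the deleted part, and Pdss2 does not check the labels. Of 7 measured hepatocyte markers none passed the test on any probe set, and their summed linear signal was 55100 to 68500 in mutants and 67400 to 68100 in controls. On 10 of their 13 probe sets, several of which read the same gene, the difference was negative, with a median of -0.35. With the brightest probe set of each gene the median was -0.22. Among the members, Fabp1, Slc27a4 and Slc27a5 differed by -0.69 to -0.25, and Slc27a2 by -0.05. The 4 probe sets of the apolipoprotein gene Apoa1 (-0.42 to -0.36) put each mutant below each control, while the brightest probe set of the list, of the plasma carrier gene Ttr, differed by -0.04.

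Fabp2, the intestinal fatty acid binding protein, had the largest difference of the 16. It is read by 1 probe set, 1418438_at, and lies on chromosome 3 (122895072 to 122899506 in GRCm38.p6). Its log2 intensity was 8.12, 5.70 and 5.89 in mutants 1 to 3, against 9.48, 9.29 and 9.57 in controls 1 to 3. Mutants 2 and 3 lay more than 2 log2 units below mutant 1, and mutant 1 still lay below each control. These readings of mutants 2 and 3 were below the medians of their arrays (6.24 and 6.19), and whether they were above background is unknown. The group means were 6.57 ± 1.35 in mutants and 9.45 ± 0.14 in controls (SD, n = 3 each). The difference of -2.88 (standard error 0.59, 95% confidence interval -4.24 to -1.51) corresponds to 13.6% of the control level on the measured scale, with an adjusted p of 0.053 from limma and p = 0.1 from the exact two-sided permutation test, the smallest it can give. Mutant 3 and control 1, which the labels call concurrent, differed by -3.59.

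The call on Fabp2 depended on the probe sets, mice and settings of the fit. Across 16 alternatives the difference stayed between -3.65 and -2.38, and the adjusted p from limma lay between 0.00938 and 0.188, under 0.05 in 7 of them. It was 0.0454 when only probe sets of 1 gene symbol were tested and 0.0327 when the brightest probe set stood for each gene, and it was 0.00938 without mutant 1. Leaving out any other mouse gave 0.103 to 0.188.

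By the distance between patterns over the 6 arrays, each centred on its own mean, the probe sets most like that of Fabp2 read Dpys, a pyrimidine-degrading enzyme (1436291_a_at, root mean square difference 0.25), Tram1, a translocation protein of the endoplasmic reticulum (1438225_x_at, 0.27), and the histone gene H2bc22 (1427762_x_at, 0.29). In each of them mutants 2 and 3 were the lowest arrays and mutant 1 lay between these and the controls. Dpys read 9.39, 7.56 and 7.44 in mutants, against 10.70, 11.15 and 11.21 in controls.

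Fabp1, the liver fatty acid binding protein (chromosome 6, 71199879 to 71205034), was among the brightest signals of every array, at percentile 99.6 or above of its probe sets. On probe set 1417556_at it read 13.52, 12.91 and 12.46 in mutants 1 to 3, against 13.58, 13.62 and 13.74 in controls 1 to 3. Each mutant lay below each control, mutant 1 by the least, and the controls spanned a narrower range than the mutants. The difference was -0.69 (standard error 0.28), or 62.1% of the control level, with an adjusted p of 0.179 from limma. The other probe set, 1448764_a_at, read 13.55, 13.27 and 13.15 in mutants, against 13.54, 13.57 and 13.60 in controls, a difference of -0.25 (adjusted p = 0.467 from limma). Here mutant 1 lay among the controls and mutants 2 and 3 below them. Both probe sets are near the top of the scale of these arrays, whose highest values were 14.49 to 14.63, and no value on saturation came with them.

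Fabp4, the fatty acid binding protein of adipocytes and macrophages, went the other way, with positive differences on all 4 of its probe sets (0.61 to 0.84) and adjusted p from 0.113 to 0.214 from limma. On the brightest, 1451263_a_at, it read 9.24, 8.09 and 7.75 in mutants 1 to 3, against 7.41, 7.76 and 7.38 in controls 1 to 3. Mutant 1 was the highest array by more than 1 log2 unit, and mutant 3 lay just below control 2. The difference was 0.84 (standard error 0.38), and it was 0.40 without mutant 1. Probe set 1417023_a_at followed it closely, with 9.11, 8.07 and 7.77 in mutants against 7.30, 7.63 and 7.59 in controls (root mean square difference between both patterns 0.12).

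The remaining probe sets of Fabp4 were dimmer and did not put mutant 1 so far apart. Probe set 1425809_at read 6.54, 6.03 and 6.53 in mutants, against 5.70, 5.83 and 5.52 in controls, a difference of 0.68 (95% confidence interval 0.17 to 1.20). Probe set 1424155_at read 5.90, 5.47 and 5.47 in mutants, against 4.88, 5.39 and 4.75 in controls. On both, each mutant lay above each control. They lay in bins of brightness in which all probe sets had a median difference of 0.21 to 0.24, and after quantile normalization their differences were 0.52 and 0.41, while those of the brighter pair were 0.86 and 0.91.

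Some markers of the other cell types known for Fabp4 also read higher in mutants. Of 8 endothelial markers Stab2 (1.82) and Stab1 (1.39), scavenger receptors of sinusoidal endothelium, read higher in mutants, at adjusted p of 0.0375 and 0.0499 from limma. The bacterial transcripts added to every sample differed by 1.36 to 1.82 in the same direction. Probe set AFFX-BioB-5_at read 10.04, 10.71 and 10.31 in mutants 1 to 3, against 8.83, 8.59 and 8.23 in controls 1 to 3. Stab2 read 10.32, 11.11 and 10.53, against 9.21, 8.86 and 8.43. Whether the array difference in the added transcripts enters the Stab2 and Stab1 values was not tested. The summed linear signal of the endothelial list was 3270 to 5630 in mutants and 1880 to 3010 in controls. The brightest probe sets of the other endothelial genes differed less. Those of the growth factor receptor Kdr (0.17), the lectin Clec4g (0.11), the adhesion gene Pecam1 (0.20) and the cadherin Cdh5 (-0.16) lay near or below the 0.17 of all probe sets. Those of Lyve1 (0.69, each mutant above each control) and Gpihbp1 (0.77, groups overlapping) lay above it. The dimmer probe sets of Cdh5, Clec4g and Lyve1 differed by 0.52, 0.59 and -0.17. Of 8 macrophage markers none passed on any of 11 probe sets (3 were higher and 0 lower at an unadjusted p under 0.05, beside 15.7% and 9.54% of all probe sets), and their sum was 2420 to 4170 in mutants and 1160 to 2390 in controls. In the fits without mutant 2, mutant 3, control 2 or control 3, 0 probe sets of any kind were called. Of these 11 macrophage probe sets 10 had positive differences and 1 a negative one. The brightest macrophage gene, the growth factor receptor Csf1r, differed by 1.06 on its brightest probe set, with overlapping groups. That probe set read 10.23, 11.58 and 10.61 in mutants 1 to 3, against 9.25, 9.28 and 10.72 in controls 1 to 3. It was the largest term of the macrophage sum in every mouse. All mutants exceeded all controls on 3 of the 11 probe sets, beside 21.2% of all probe sets. These 3 read Clec4f (1.17), Marco (0.70 on 1449498_at) and Csf1r (0.66 on 1423593_a_at). The macrophage genes Adgre1, Cd5l and Timd4 differed by 0.36, 0.22 and -0.27, with overlapping groups. Of 5 adipocyte markers none passed, and their sum was 302 to 567 in mutants and 214 to 430 in controls. Of their 6 probe sets 2 were higher and 0 lower at an unadjusted p under 0.05 from limma, beside 15.7% and 9.54% of all probe sets. The adipokine gene Adipoq had a log2 mean of 5.25 in mutants and 4.65 in controls (difference 0.59), and lay at percentiles 11.9 to 27.9 of the arrays. Retn, Lep and Cidec differed by 0.50, 0.09 and -0.09. Lipe, a lipase and the brightest adipocyte gene, differed by 0.19. The part of these cells in the Fabp4 values was not tested, and in bulk liver RNA a change in the number of cells and one in RNA per cell cannot be told apart. The patterns most like that of the brightest Fabp4 probe set were those of Itgb1, an integrin (1452545_a_at, root mean square difference 0.15), Cx3cr1, a chemokine receptor of monocytes and macrophages (1450019_at, 0.15), and the ribosome assembly factor Utp6 (1424501_at, 0.15).

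Fabp5 lies close to Fabp4 on chromosome 3, at 10012585 to 10016610 in GRCm38.p6 with Fabp4 at 10204342 to 10208616, and its values spread more among mutants than those of any other member. On probe set 1416021_a_at it read 10.85, 7.64 and 8.0 in mutants 1 to 3, against 10.28, 9.76 and 9.47 in controls 1 to 3. Mutant 1 lay above all controls, and mutants 2 and 3 lay below them by more than 1 log2 unit. The other probe set, 1416022_at, placed the mice likewise, with 8.56, 4.40 and 5.07 in mutants against 7.52, 7.02 and 6.82 in controls. The differences were -1.01 (standard error 0.77, adjusted p = 0.457 from limma) and -1.11 (standard error 0.95, adjusted p = 0.513 from limma). Without mutant 1 they were -2.02 and -2.39, with adjusted p of 0.0153 and 0.0118 from limma. Leaving out any other mouse gave -1.26 to -0.30, with adjusted p from 0.391 to 0.888 from limma. On 1416022_at mutants 2 and 3 read below the lower quartile of their arrays (5.40 and 5.34), so that their level above background is unknown.

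**Figure D2:**
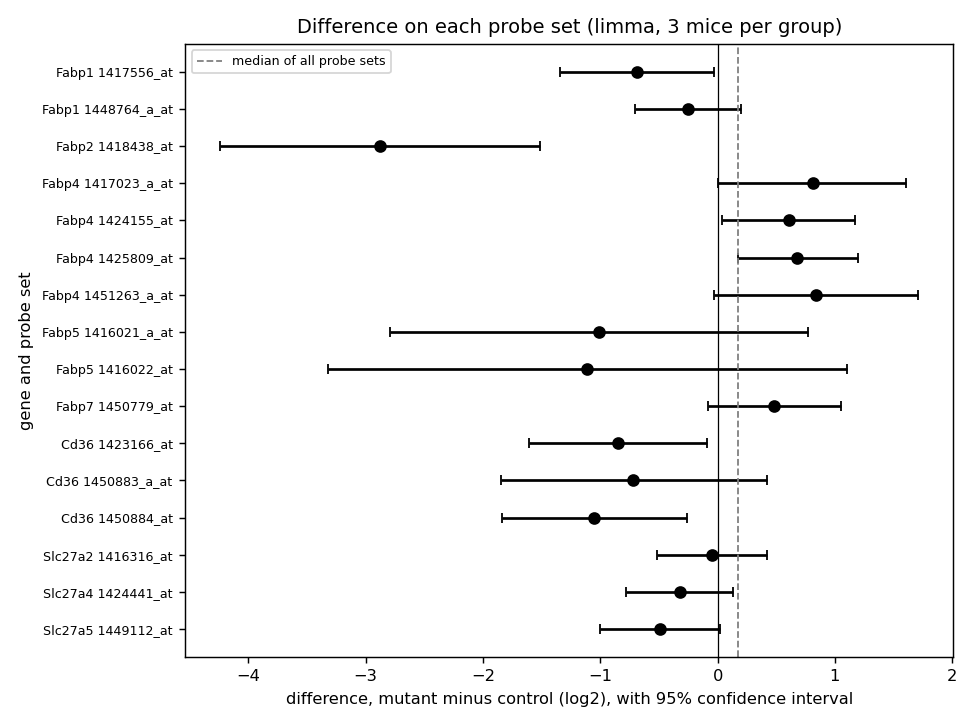
Difference between mutants and controls (horizontal axis, log2) on each of the 16 probe sets (vertical axis), as points with 95% confidence intervals from limma, n = 3 mice per group; the dashed line marks the median of all probe sets, 0.17. The interval of Fabp2 ends at -1.51, and those of both Fabp5 probe sets span from below -2 to above 0.

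Fabp7, the brain fatty acid binding protein, was dim on its single probe set 1450779_at, between percentiles 10.7 and 31.1 of the arrays. It read 5.50, 5.14 and 5.53 in mutants 1 to 3, against 5.10, 5.11 and 4.51 in controls 1 to 3. Each mutant lay above each control, although mutant 2 only barely exceeded control 2. Mutants exceeded controls by 0.48 (standard error 0.24), at an adjusted p of 0.259 from limma, and by 0.28 after quantile normalization. No detection calls came with the values, so whether Fabp7 RNA was above background is unknown.

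Cd36, the fatty acid receptor of the cell surface, had negative differences on all 3 of its probe sets, and none passed the test. On the brightest, 1423166_at, it read 7.82, 7.68 and 7.38 in mutants 1 to 3, against 7.88, 9.14 and 8.41 in controls 1 to 3. The mutants lay close together, below every control, and control 1 lay just above mutant 1. The difference was -0.85 (standard error 0.33), or 55.5% of the control level, with an adjusted p of 0.159 from limma.

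Probe set 1450884_at of Cd36 read 5.59, 4.96 and 5.33 in mutants, against 5.67, 6.92 and 6.45 in controls, a difference of -1.05 (95% confidence interval -1.84 to -0.26, adjusted p = 0.113 from limma). Probe set 1450883_a_at read 7.35, 6.34 and 5.74 in mutants, against 6.33, 7.65 and 7.60 in controls, a difference of -0.72 (adjusted p = 0.404 from limma). Control 1 was the lowest control on all 3, and on 1450883_a_at it lay below mutant 1 so that the groups overlapped. Between mutant 3 and control 1 the differences were -0.50, -0.34 and -0.59. Without control 1 they were -1.15, -1.39 and -1.15, and without control 2 they were -0.52, -0.76 and -0.49, with adjusted p from 0.172 to 0.716 from limma. Cd36 is also made by endothelium and macrophages, and the part of these cells in its values was not tested.

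None of the 3 fatty acid transport proteins passed the test. Slc27a5 (FATP5), an enzyme of hepatocytes that also joins bile acids to coenzyme A, read 11.64, 11.27 and 11.01 in mutants 1 to 3, against 11.85, 11.70 and 11.84 in controls 1 to 3 on 1449112_at. Each mutant lay below each control, mutant 1 by the least. The difference was -0.49 (standard error 0.22), or 71.2% of the control level, with an adjusted p of 0.214 from limma.

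Slc27a4 (FATP4), a widely expressed acyl-CoA synthetase of the endoplasmic reticulum, read 7.41, 7.04 and 7.11 in mutants, against 7.53, 7.60 and 7.40 in controls on 1424441_at, a difference of -0.32 (adjusted p = 0.344 from limma). The groups overlapped only at mutant 1 and control 3. Slc27a2 (FATP2), the very long-chain acyl-CoA synthetase of liver, read 12.27, 12.73 and 12.44 in mutants, against 12.46, 12.57 and 12.55 in controls on 1416316_at. Its difference was -0.05, with a 95% confidence interval of -0.52 to 0.42 and an adjusted p of 0.903 from limma.

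Mutant 1 differed from the other mutants in most of these genes, and not in these alone, since without it 3840 probe sets were called, against 0 to 3 without any other mouse. Centred on each probe set's mean over the 6 arrays, the median over the 16 probe sets was 0.28 in mutant 1, -0.29 in mutant 2 and -0.39 in mutant 3, against -0.04, 0.20 and 0.15 in controls 1 to 3. Over all probe sets the same medians were 0.03, 0.13 and 0.07 in mutants, against -0.16, -0.07 and 0.01 in controls. Mutant 1 was the highest mutant for Fabp1, Fabp2, Fabp4, Fabp5, Cd36, Slc27a4 and Slc27a5, and it was the highest of all 6 mice for Fabp4 and Fabp5, by the mean of each gene's centred probe sets. For Slc27a2 it was the lowest of the 6.

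**Figure D3:**
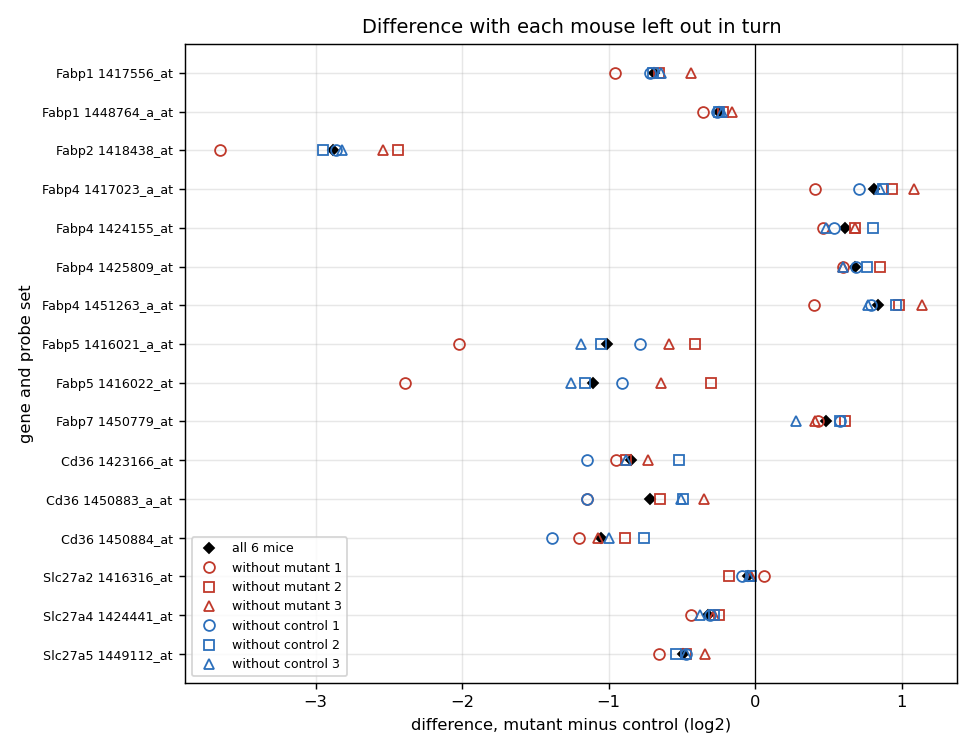
Difference between mutants and controls (horizontal axis, log2) on each of the 16 probe sets (vertical axis) with all 6 mice (black) and with each mutant (red) or control (blue) left out in turn. Leaving out mutant 1 moves Fabp5 to -2.02 and -2.39 and Fabp2 to -3.65, and of the 16 only Slc27a2 crosses 0.

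Of 70 related genes, from the same protein families and from the activation, carriage and regulation of fatty acids, 60 were measured by 114 probe sets. On 2 of these the gene fell and on none it rose at an adjusted p under 0.05 from limma, beside 0.746% and 1.25% of all probe sets, and the median difference was 0.01. The genes that fell were Pparg and Vnn1. Pparg, the nuclear receptor that drives fat storage genes, read 6.64, 6.04 and 5.94 in mutants 1 to 3, against 7.64, 8.24 and 8.45 in controls 1 to 3. The difference of -1.90 (standard error 0.29) leaves it at 26.8% of the control level on the measured scale (adjusted p = 0.0345 from limma), and here mutant 1 stood with its group. Mutants 2 and 3 read below the medians of their arrays (6.24 and 6.19), and whether Pparg was above background in them is unknown.

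Vnn1, a pantetheinase and a target of PPAR alpha, read 7.20, 7.25 and 6.37 in mutants, against 8.24, 8.91 and 8.85 in controls on 1447845_s_at, a fall of 1.73 on the log2 scale (standard error 0.31, adjusted p = 0.0464 from limma). Its other probe set differed by -1.07 (adjusted p = 0.151 from limma), with overlapping groups. Leaving out mutant 1 gave 9 related genes called lower and 5 higher, and leaving out any other mouse gave 0 of either. Of all 45037 probe sets, the fit without mutant 1 called 3840, and leaving out any other mouse called 0 to 3. The change in these counts was thus not confined to the related genes.

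Among 13 measured PPAR alpha target genes, 2 of 18 probe sets had higher and 6 had lower values in mutants by limma's p without adjustment (under 0.05), beside 15.7% and 9.54% of all probe sets, and the median difference was -0.14. Of the 18 differences 9 were positive and 9 negative, while 34.8% of all probe sets were negative. The genes with low values included Pdk4, the kinase that inhibits pyruvate dehydrogenase (-1.63), the acyl-CoA thioesterases Acot4 and Acot1 (-1.16 on 1 probe set of each) and the peroxisomal enzyme Ehhadh (-1.58, with mutant 1 among the controls). The lipase inhibitor Angptl4 read higher, by 0.81 and 0.54. Differences were also positive for Creb3l3 (0.54), Acaa1b (0.33), Cyp4a14 (0.13), Plin2 (0.11) and Fgf21 (0.09). Cpt1a lay between -1.01 and 0.09 on its probe sets, and Acot3 at -0.37. Ppara, the receptor itself, had probe sets that disagreed, at 1.14 on 1457721_at (adjusted p = 0.0616 from limma), -0.78 on 1439675_at (adjusted p = 0.0871) and 0.33 on 1449051_at. The first of these put each mutant above each control and the second each mutant below.

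The other members of the FABP and retinoid-binding family, which liver is not known to use as main carriers, had positive differences on all 11 probe sets (0.13 to 1.14), and so did the other FATP genes Slc27a1 and Slc27a3 on 3 (0.32 to 0.55), with none past the adjusted p and 4 of 11 and 1 of 3 higher at an unadjusted p under 0.05 from limma (15.7% of all probe sets). Fabp12 (0.94, adjusted p = 0.0556) and Fabp6, the bile acid carrier of ileum (1.14, adjusted p = 0.0599), came closest. The group means of these 14 probe sets in mutants were 4.96 to 7.56, mostly in the bins of brightness where all probe sets had a median difference of 0.18 to 0.24, and 34.8% of all probe sets were negative. Acyl-CoA synthetases had a median difference of 0.01 over 24 probe sets and acyl-CoA and sterol carriers -0.03 over 19, with none called. Dbi, the abundant acyl-CoA binding protein, lay at -0.53 to -0.74 on 4 probe sets (adjusted p from 0.225 to 0.375 from limma), with mutant 1 among the controls and mutants 2 and 3 below them.

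**Figure D4:**
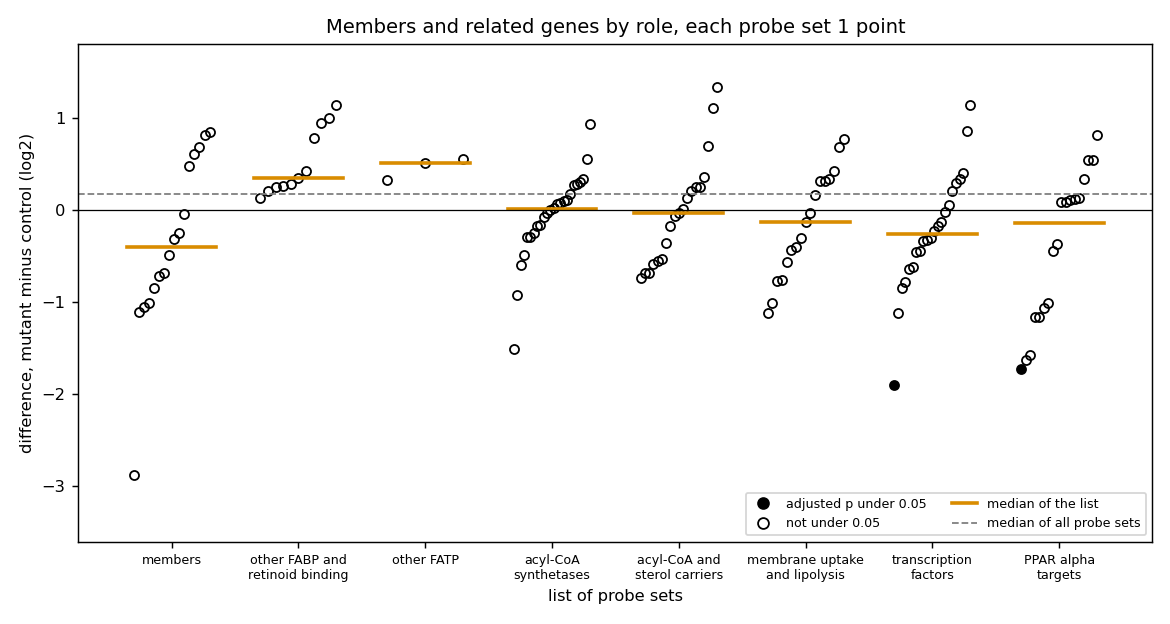
Difference between mutants and controls (vertical axis, log2) for each probe set of the 9 member genes and of 7 lists of related genes (horizontal axis), with each list's median in orange, the median of all probe sets dashed, and filled points for an adjusted p under 0.05 from limma. The filled points are Pparg at -1.90 and Vnn1 at -1.73, and all 14 points of the other FABP, retinoid-binding and FATP genes lie above 0.

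In the remaining lists, genes of membrane uptake and lipolysis had a median of -0.13 over 17 probe sets with none called. Scarb1, the receptor for high-density lipoprotein, was lower in each mutant than in each control on 3 of them (-1.12, -1.01 and -0.77, adjusted p from 0.0591 to 0.0843 from limma). Markers of enterocytes, the cells in which Fabp2 is best known, had 0 of 10 probe sets called, with 2 higher and 1 lower before adjustment (limma's p under 0.05; 15.7% and 9.54% of all probe sets) and a summed linear signal of 1210 to 1760 in mutants and 1690 to 2190 in controls. Their brightest gene, Mttp, which hepatocytes also use to load lipoproteins, differed by -0.91 and -0.08 on its probe sets. The intestinal transcription factor Cdx2 differed by 0.78 and 0.35, Cdx1 by 0.94, and the enterocyte genes Vil1 and Alpi by 0.40 and 0.14. Lct differed by -0.38, and Apoa4 by -0.53 and 0.19 on its probe sets. The part of enterocytes in the Fabp2 values was not tested. No probe set of the cholangiocyte, stellate cell, erythroid or blood cell lists was called. The cholangiocyte sum was 315 to 419 in mutants and 238 to 268 in controls (Krt19 differed by 1.07, adjusted p = 0.053 from limma). The sums of the remaining lists overlapped. That of stellate cells was 2490 to 3260 in mutants and 2340 to 3780 in controls (Dcn 0.16), and that of erythroid cells was 348 to 630 in mutants and 587 to 703 in controls (Alas2 -0.52). That of neutrophils and lymphocytes was 385 to 580 in mutants and 323 to 418 in controls (Ptprc 0.37).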

How the data were processed

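The deposited values are log2 intensities, 1 per probe set and array, which the authors normalized and summarized in dChip with its perfect-match model. The sources used here give neither the dChip version nor its baseline array. Although the methods name an array of C. elegans, the probe sets carry mouse array names. Of 45101 probe sets, 64 AFFX controls were left out. Genes were named from the platform annotation, in which 34958 probe sets carry 1 symbol, 932 several and 9211 none. Groups were taken from the sample titles.

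The mutant and control arrays were compared by limma 3.58.1 (lmFit, eBayes; R 4.3.3), which had been tested on simulated data, and p-values were adjusted by Benjamini-Hochberg over all 45037 probe sets, with a threshold of 0.05. Single values were compared by exact permutation over the 20 assignments with scipy 1.17.1, and figures were drawn with matplotlib 3.10.9. Members, lists and tests were chosen with earlier results of these data known. Named genes were all members, related genes past the adjusted p, Ppara, Pparg and Dbi, markers past it or brightest in their list, Pdss2, and the 3 nearest patterns for the member genes of smallest p, Fabp2 and Fabp4. Apoa1, Kdr, Clec4g, Pecam1, Cdh5, Adgre1, Cd5l, Timd4, Adipoq, Vil1, Cdx2, Scarb1, Pdk4, Acot1, Acot4, Ehhadh, Angptl4, Fabp6, Fabp12, Slc27a1 and Slc27a3 were named after their values were seen. The macrophage genes Clec4f and Marco and the endothelial genes Lyve1 and Gpihbp1 were also named after their values were seen. So were the adipocyte genes Retn, Lep and Cidec and the enterocyte genes Cdx1, Lct, Apoa4 and Alpi. The same holds for the PPAR alpha targets Creb3l3, Acaa1b, Cyp4a14, Plin2, Fgf21, Cpt1a and Acot3. Acsl1 and 9 other listed related genes were not analysed here. The comparison was repeated after quantile normalization or median centring, on bright probe sets, on probe sets of 1 symbol, with 1 value per gene, with a replicate block or age in the fit, with limma's trend and robust settings, and without each mouse. A fit without both mutant 2 and control 3 was chosen after seeing the data. The small number of arrays limits the precision.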

Additional observations from a re-analysis of the deposited data

How the results depend on the processing

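Of the 9 members, 0 had a probe set called lower and 0 called higher. The number lower was 1, Fabp2, with bright probe sets, probe sets of 1 symbol, the brightest probe set per gene, the mean of probe sets per gene, trend and robust options, or age, and 0 to 2 with each mouse left out (0 higher in each). Related genes lower and higher, 2 and 0 with all mice, were 1 and 0 with quantile normalization, 6 and 4 with bright probe sets, 4 and 2 with the brightest per gene, 1 and 1 with the mean, 5 and 5 with age, 0 and 0 without mutant 2 and control 3 together, and 0 to 9 and 0 to 5 with each mouse left out. Higher ones were 2 with probe sets of 1 symbol and 1 with trend and robust options. All features called, 897, were 300 with median centring, 3050 of bright probe sets, 1643 and 502 genes by brightest and mean, 1413 with trend and robust options, 2515 with age, 0 without mutant 2 and control 3 together, and 0 to 3840 with each mouse left out, 3840 of them without mutant 1. The members' median difference lay between -0.55 and -0.28 with each mouse left out. Of 238 values of single member probe sets under the alternatives, 228 kept their sign and side of the threshold and 9 passed it. Slc27a2 lay between -0.18 and 0.06 with each mouse left out and turned positive without mutant 1.

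The replicate number as a block gave 0 called features, 0 related genes lower and an adjusted p of 0.184 for Fabp2 from limma. No pairing of the mice by number was visible. Deviations from the group means correlated at 0.06, -0.50 and -0.56 for equal numbers, and not every mouse correlated best with its own number (0.62 between mutant 2 and control 3). Deviations within a group are bound to each other, so these correlations cannot show whether the numbers pair the mice. The cause of these changes was not tested. With no detection calls, signal over background is unknown for the dim probe sets of Fabp4, Fabp7 and Cd36, and for Fabp2, Fabp5 (1416022_at) and Pparg in mutants 2 and 3.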
